A study of Mus musculus with 10 samples.

Results

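Tip cells are the endothelial cells that lead a vascular sprout. The 6 genes Esm1, Kcne3, Plaur, Rgcc, Lamp5 and Trp53i11, all known as markers of such cells in growing vessels, were followed in sinusoidal endothelium of the mouse liver with and without a conditional deletion of Gata4. They were taken by name as tip cell genes, with earlier results of these data known, so their counts are no independent evidence. All 6 of 6 had a probe set of their own among the 24704 genes analysed. 3 of them, Esm1, Kcne3 and Rgcc, were higher in the knockout arrays, while Plaur, Trp53i11 and Lamp5 did not pass the threshold.

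The 10 arrays fell into 2 groups. In the group called Gata4-LSEC-KO, here the knockout, mice carried the transgene Clec4g-icre, which expresses a Cre recombinase under control of a gene of sinusoidal endothelium, together with the floxed Gata4 allele Gata4tm1.1Sad, and 5 arrays were made. Another 5 arrays came from sibling controls, labelled WT, whose exact alleles the sources used here do not give, nor do they give the age or sex of any animal. Each array measured RNA of cells pooled from 3 mice, enriched on a density gradient and then with magnetic beads against CD146, so the p-values below measure the spread between pools.

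In a growing vessel, vascular endothelial growth factor (VEGF) selects leading cells, which extend filopodia, secrete proteases and matrix proteins and carry the Notch ligand that keeps their neighbours, the stalk cells, from taking the same role. A tip cell profile has been described in retina, tumours and embryo, whereas the resting liver sinusoid is a quiescent, fenestrated bed. The markers followed here cover a secreted proteoglycan (Esm1), surface proteins (Kcne3 and Plaur), a cell cycle regulator (Rgcc), a member of the LAMP family (Lamp5) and a transmembrane protein named for its induction by p53 (Trp53i11).

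GATA4 binds DNA at GATA letters, so the windows around the annotated starts of the tip cell genes that rose are shown. RefSeq windows of GRCm38.p6, from 250 bases before to 50 bases after a start, were matched for all 6 members, with 2 windows each for Kcne3 and Lamp5. Gene positions below are from the same build. Those of the 3 genes that rose, and the 1 member window with the extended GATA motif, are printed 5′ to 3′ on the strand of the gene, with the letters GATA, or TATC as read on the other strand, in capitals. The Esm1 window lies at chr13:113209409-113209708 on the plus strand, the Kcne3 windows at chr7:100176420-100176719 and chr7:100178433-100178732 on the plus strand, the Rgcc window at chr14:79301586-79301885 on the minus strand and the second Lamp5 window at chr2:136057498-136057797 on the plus strand.
Esm1: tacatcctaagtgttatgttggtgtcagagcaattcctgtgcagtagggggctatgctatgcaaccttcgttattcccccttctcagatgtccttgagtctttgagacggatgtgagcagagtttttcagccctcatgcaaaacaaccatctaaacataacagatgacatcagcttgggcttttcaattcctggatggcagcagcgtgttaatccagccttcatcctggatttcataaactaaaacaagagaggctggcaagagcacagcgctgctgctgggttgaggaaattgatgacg
Kcne3, first window: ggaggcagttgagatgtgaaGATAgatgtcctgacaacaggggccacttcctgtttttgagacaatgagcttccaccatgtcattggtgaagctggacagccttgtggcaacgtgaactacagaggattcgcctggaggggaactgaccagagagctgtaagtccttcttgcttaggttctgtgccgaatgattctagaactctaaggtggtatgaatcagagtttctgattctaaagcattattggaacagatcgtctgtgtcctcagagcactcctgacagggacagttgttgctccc
Kcne3, second window: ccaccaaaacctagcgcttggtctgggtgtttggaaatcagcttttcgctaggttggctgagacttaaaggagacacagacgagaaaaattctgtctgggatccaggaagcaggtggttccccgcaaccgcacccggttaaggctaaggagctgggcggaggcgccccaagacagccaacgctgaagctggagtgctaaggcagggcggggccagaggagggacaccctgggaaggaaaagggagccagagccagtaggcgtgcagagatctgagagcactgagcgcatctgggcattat
Rgcc: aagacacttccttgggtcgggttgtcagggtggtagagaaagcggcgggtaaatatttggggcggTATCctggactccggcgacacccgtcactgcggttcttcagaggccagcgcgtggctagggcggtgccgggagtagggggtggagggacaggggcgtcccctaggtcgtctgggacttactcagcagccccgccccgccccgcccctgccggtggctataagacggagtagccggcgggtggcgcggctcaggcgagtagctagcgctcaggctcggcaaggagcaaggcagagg
Lamp5, second window: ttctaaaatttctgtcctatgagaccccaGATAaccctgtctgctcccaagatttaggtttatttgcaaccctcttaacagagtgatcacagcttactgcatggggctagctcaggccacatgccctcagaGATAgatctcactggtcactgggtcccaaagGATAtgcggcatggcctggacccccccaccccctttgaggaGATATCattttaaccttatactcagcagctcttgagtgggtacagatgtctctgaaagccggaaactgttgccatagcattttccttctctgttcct

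The motif GATAA, counted on both strands, was found in 1 of the 6 members, Lamp5, whose array value did not differ past the threshold, and in none of the windows of Esm1, Kcne3, Plaur, Rgcc or Trp53i11. Of all 32851 windows, 25.4% held it, and 28.4% of 27025 genes had it in at least 1 window. The shorter core GATA, which is contained in that motif and was added after the windows had been seen, was present once in the first Kcne3 window, 230 bases before the start, once in the Rgcc window, 185 bases before the start, and 5 times in the second Lamp5 window. This core was found in 57.9% of all windows and in at least 1 window of 61.5% of genes, beside 3 of the 6 members. The E-box CACGTG was in none of the member windows and in 7.15% of all, and the ETS motif CCGGAA, counted on both strands, was in the second Lamp5 window and in 14.9% of all. A match to such letters is a description of the window, not of a binding site.

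Esm1 (chr13:113209659-113218104) encodes endocan, a proteoglycan that endothelial cells secrete and that VEGF is known to induce. Its knockout arrays read 10.13, 9.32, 9.73, 10.47 and 9.77 for replicates 1 to 5 on the log2 scale of the deposited values. Its control arrays read 8.23, 5.43, 6.83, 7.32 and 6.71. The groups did not overlap, since the lowest knockout value, that of replicate 2, lay 1.09 above the highest control value, that of replicate 1. With means of 9.88 ± 0.44 and 6.90 ± 1.02 (SD, n = 5), Esm1 was 7.89-fold higher in the knockout, at a log2 fold change of 2.98 ± 0.42 (SE; adjusted p = 0.00365 by limma). It ranked 10 among 24704 genes by the size of its rise. The controls were far apart among themselves: their range of 2.80 covered more than that of the knockout arrays, 1.15, and the control SD was at percentile 98.6 of all genes.

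Kcne3 (chr7:100176507-100184869) encodes a small subunit with a single membrane span that joins voltage-gated potassium channels, among them the channel formed by KCNQ1, and changes their gating. The 5 knockout values were 7.60, 7.19, 6.18, 6.98 and 6.80 for replicates 1 to 5, and the 5 control values 5.57, 4.78, 4.92, 4.86 and 4.83. All knockout arrays lay above all controls, by at least 0.61. Kcne3 averaged 6.95 ± 0.52 in knockout arrays against 4.99 ± 0.33 in controls (SD, n = 5), a 3.88-fold difference (1.96 ± 0.24 on the log2 scale, adjusted p = 0.00152 by limma). Control replicate 1 stood above the other controls, which read 4.85 ± 0.06 (SD, n = 4).

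Among the channel genes listed with Kcne3, none of 8 measured passed the threshold by limma, and 2 of the 8 had an unadjusted p under 0.05, which 13.6% of all genes had. These were Kcnq1, the best known pore partner of KCNE3, at 6.40 ± 0.13 in the knockout and 6.70 ± 0.20 in the control (log2 fold change -0.29 ± 0.12, adjusted p = 0.301), and Kcne4, another small subunit, at 3.04 ± 0.32 and 2.61 ± 0.31 (0.43 ± 0.18, adjusted p = 0.324). The median log2 fold change of the 8 genes was 0.02, against -0.02 over all genes. Calls in this list and those below are to be read beside the 1.30% of all genes that rose and 0.846% that fell.

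Plaur (chr7:24460937-24475970) encodes the receptor for urokinase, a protein held at the cell surface by a lipid anchor, where it focuses plasminogen activation. Its knockout values were 6.41, 6.26, 5.81, 5.99 and 5.91 and its control values 6.02, 5.14, 5.47, 5.34 and 5.71, each for replicates 1 to 5. The groups overlapped: control replicate 1 lay above knockout replicates 3, 4 and 5, and 2 knockout arrays lay above every control. The difference of 0.54 ± 0.18 on the log2 scale had a 95% interval of 0.15 to 0.93 and an adjusted p of 0.177 by limma, so Plaur did not pass. Without control replicate 1 it did pass, at 0.66 with an adjusted p of 0.0438, the array then left out being the control with the highest Plaur value.

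The ligand and related protease of this receptor rose. Plau, which encodes urokinase itself, was higher by 0.85 ± 0.09 on the log2 scale (adjusted p = 0.000732 by limma), with 6.86 ± 0.11 in knockout arrays against 6.01 ± 0.06 in controls (SD, n = 5). Plat, the tissue plasminogen activator, was higher by 1.11 ± 0.21 (adjusted p = 0.0187). Plat no longer passed once knockout replicate 2 was left out (adjusted p = 0.0576), which left 1 gene of the list. In the list of the urokinase receptor system 2 of 12 measured genes thus rose and 10 missed the threshold, and the median log2 fold change was 0.40.

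Rgcc (chr14:79288750-79301635) encodes a regulator of the cell cycle that was first described as a gene responsive to complement and binds the mitotic kinase CDK1. It read 4.95, 4.44, 5.23, 4.71 and 5.47 in knockout replicates 1 to 5 and 3.40, 3.77, 3.58, 3.72 and 4.03 in control replicates 1 to 5. No control array reached the lowest knockout array, and the gap was 0.41. Rgcc was 2.39-fold higher in the knockout (log2 fold change 1.26 ± 0.19, adjusted p = 0.00586 by limma), with means of 4.96 ± 0.41 and 3.70 ± 0.23 (SD, n = 5). The control mean was at the level of the array median, 3.71, so the fold is a ratio of array values and need not be one of RNA amounts.

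All 11 measured genes in the list of kinases bound by RGCC and of the G2 and M phases had a log2 fold change above 0, with a median of 0.67. The median over all genes was -0.02. By limma 1 gene of the list rose and 10 stayed short of the threshold. An unadjusted p under 0.05 was found for 8 of the 11, beside 13.6% of all genes. Ccna2, a cyclin of S phase and G2, was higher by 1.07 ± 0.22 (adjusted p = 0.0315 by limma), and no longer passed, leaving 0 genes of the list, when any of knockout replicates 1, 2, 3 and 5 and control replicates 3, 4 and 5 was left out (largest adjusted p 0.0855). Without control replicate 1 the list had 2 genes that rose.

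Trp53i11 (chr2:93187349-93201757) gave bright signals in both groups, at percentile 98.9 of all gene means. The knockout arrays read 9.38, 9.46, 9.36, 9.79 and 9.69 and the controls 8.57, 9.43, 9.08, 9.24 and 8.98 for replicates 1 to 5. Control replicate 2 exceeded knockout replicates 1 and 3, so the groups overlapped, and 3 knockout arrays were above all controls. The means were 9.54 ± 0.19 and 9.06 ± 0.32 (SD, n = 5), and the log2 fold change of 0.48 ± 0.16 had a 95% interval of 0.12 to 0.83 and an adjusted p of 0.191 by limma.

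The p53 target genes gave 1 call in each direction. 1 of 17 measured genes rose, 1 fell, and 15 stayed short of the threshold, with a median log2 fold change of 0.12. Cdkn1a, which encodes the cyclin-dependent kinase inhibitor p21, was higher by 1.23 ± 0.11 (adjusted p = 0.000191 by limma), with 7.32 ± 0.12 in knockout arrays against 6.08 ± 0.15 in controls (SD, n = 5). Fas, a death receptor, was lower at -0.51 ± 0.12 (adjusted p = 0.0475). The call of Fas held in 1 of the 10 fits that left out an array, that without control replicate 1, and its adjusted p reached 0.12 in the others.

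Lamp5 (chr2:136052025-136069917) encodes a glycoprotein of the LAMP family that is found in neurons and plasmacytoid dendritic cells and is also used as a tip cell marker. Its signal was dim, at percentile 25.4 of all gene means and below the array median in all 10 arrays. The values were 2.39, 2.16, 2.28, 2.17 and 2.74 in knockout replicates 1 to 5 and 2.72, 2.39, 2.53, 2.57 and 2.55 in control replicates 1 to 5. The highest and the lowest of these 10 values were both knockout arrays, replicates 5 and 2. The log2 fold change was -0.21 ± 0.13 with a 95% interval of -0.48 to 0.07 and an adjusted p of 0.531 by limma. At this signal the arrays do not show whether the gene was expressed.

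Among the 4 other LAMP genes measured, Lamp2, a major protein of the lysosomal membrane, was lower by limma at -0.57 ± 0.09 (adjusted p = 0.00694), with 9.67 ± 0.08 in knockout arrays against 10.24 ± 0.08 in controls (SD, n = 5). The other 3, Lamp1, Lamp3 and Cd68, did not pass. They read -0.15 ± 0.10, -0.16 ± 0.09 and 0.83 ± 0.44 on the log2 scale of the difference and are named because they complete the list.

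**Figure D1:**
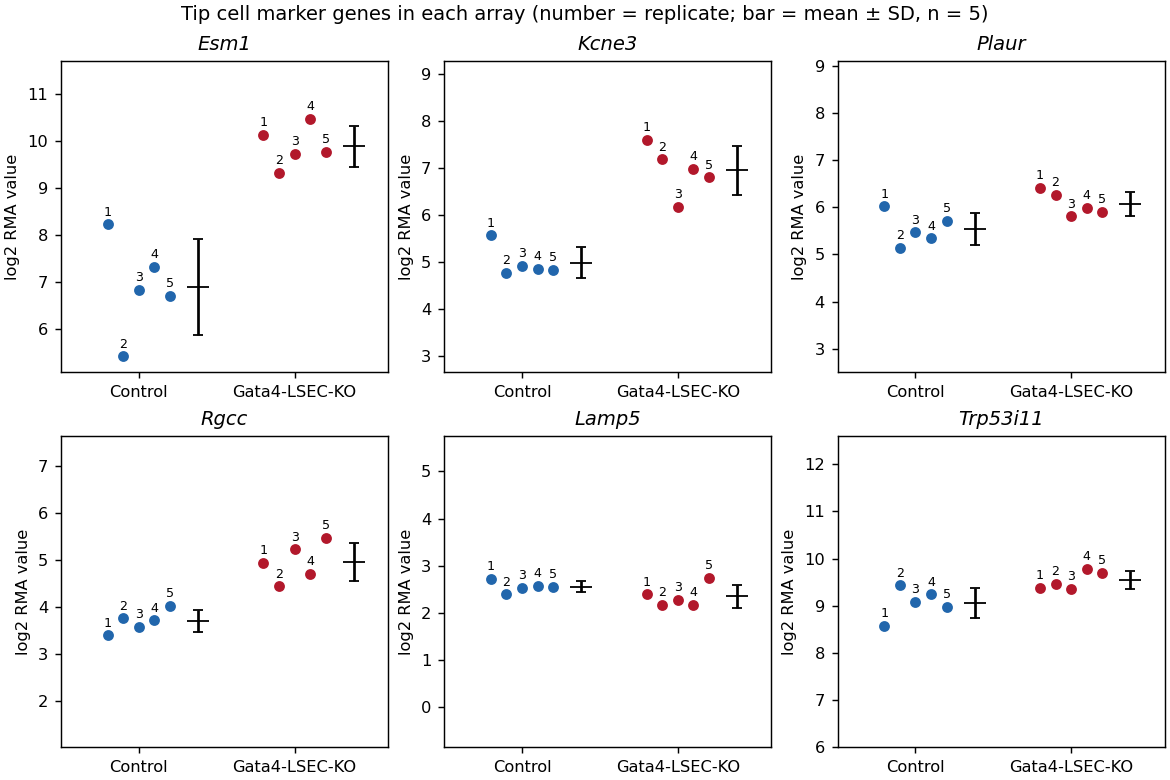
Deposited log2 value (y axis) of each of the 6 tip cell marker genes in each array, by group (x axis), with the replicate number above each point and a bar for the mean ± SD of 5 arrays; all panels span the same number of log2 units. Esm1, Kcne3 and Rgcc have no overlap between the groups, whereas Plaur, Lamp5 and Trp53i11 do.

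Counted over the 6 members, 3 rose, 0 fell and 3 did not pass. Over all genes 1.30% rose, 0.846% fell and 2.14% passed in either direction. For 3 members the groups did not overlap, each with the knockout higher. This was so for 2.55% of all genes, with 2.37% not overlapping in the opposite direction and 4.93% in either. The median log2 fold change of the members was 0.90, against -0.02 over all genes, and 5 of the 6 lay above 0. Each of the 3 calls held in all 10 fits that left out an array, with log2 fold changes from 2.61 to 3.31 for Esm1, from 1.79 to 2.15 for Kcne3 and from 1.13 to 1.39 for Rgcc and adjusted p up to 0.0151, 0.00732 and 0.0214.

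Other genes known from tip cells were also divided into genes that rose and genes that did not pass. 8 of 20 measured genes rose (Apln, Pdgfb, Cxcr4, Nid2, Fscn1, Mcam, Cd34 and Ramp3), 0 fell, and 12 stayed short of the threshold, and the median log2 fold change was 0.52. Pdgfb, the growth factor chain through which tip cells recruit pericytes, was 7.34 ± 0.45 in the knockout and 5.22 ± 0.38 in the control (log2 fold change 2.12 ± 0.23, adjusted p = 0.000744 by limma). Apln, the apelin ligand gene, was 5.60 ± 0.39 and 3.51 ± 0.41 (2.09 ± 0.22). Nid2, a basement membrane nidogen, was 7.70 ± 0.30 and 5.83 ± 0.31 (1.88 ± 0.18). Cxcr4, the receptor of the chemokine CXCL12, was 6.91 ± 0.12 and 5.31 ± 0.39 (1.61 ± 0.17, adjusted p = 0.000732).

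The receptors and the ligand at the core of tip cell selection did not pass. For Kdr, the main VEGF receptor, the log2 fold change was -0.04 ± 0.17 with a 95% interval of -0.42 to 0.34, and the adjusted p was 0.950 by limma. Dll4, the Notch ligand of tip cells, was at -0.12 ± 0.16 (interval -0.47 to 0.24, adjusted p = 0.814). Flt4, VEGF receptor 3, was at -0.38 ± 0.17 (interval -0.75 to -0.02, adjusted p = 0.332). The co-receptor Nrp1 was at -0.32 ± 0.15 (interval -0.64 to -0.003, adjusted p = 0.360). The intervals of Flt4 and Nrp1, not adjusted for the number of genes, lay below 0. These 4 genes were named after their values were seen. Unc5b, a netrin receptor of tip cells, did not overlap between the groups but did not pass either (1.42 ± 0.38, adjusted p = 0.0887), and was likewise chosen after its value was seen.

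Genes of stalk and resting endothelium had calls in both directions. 3 of 14 measured genes rose, 1 fell, and 10 stayed short of the threshold, with a median log2 fold change of 0.08. Aplnr, the apelin receptor, was higher by 3.55 ± 0.25, Hey1, a Notch target, by 1.75 ± 0.34 and Vwf, the von Willebrand factor, by 1.02 ± 0.19 (adjusted p = 6.37e-05, 0.0208 and 0.0207 by limma). Ackr1, an atypical chemokine receptor of venules, was lower at -1.65 ± 0.29 (adjusted p = 0.0127). Hey1 missed the threshold in fits lacking knockout replicates 3 or 4 or any of control replicates 3, 4 and 5 (largest adjusted p 0.0635), and Vwf in fits lacking knockout replicates 2 or 3 or control replicates 4 or 5 (largest 0.0612). In the fits without knockout replicate 3, control replicate 4 or control replicate 5, 2 genes of the list passed in place of 4. Whether the tip and stalk lists differ from each other was not tested.

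**Figure D2:**
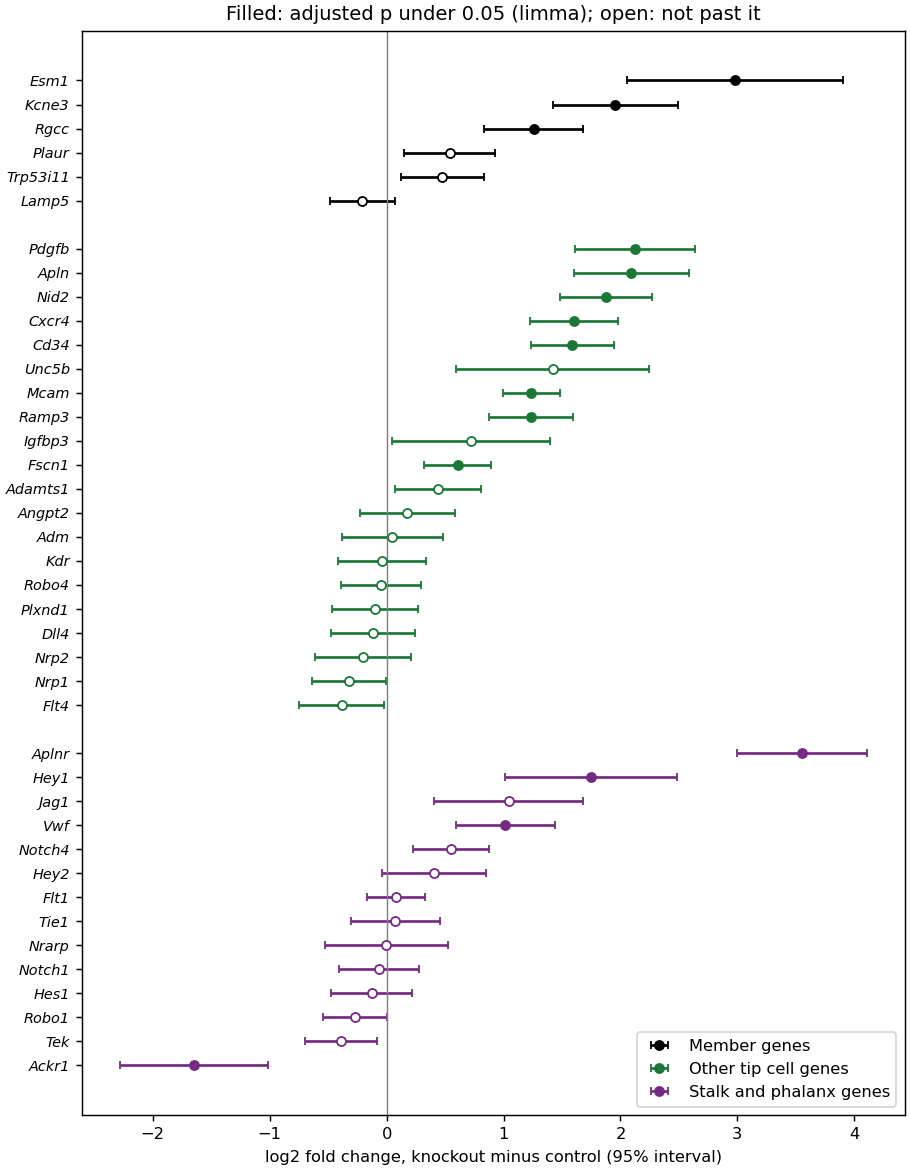
Log2 fold change, knockout minus control, with its 95% interval (x axis) for the 6 members, 20 other tip cell genes and 14 stalk and phalanx genes (y axis, sorted within each list); filled points passed the adjusted threshold of 0.05 by limma and open points did not. 3 members and 8 other tip cell genes are filled to the right of 0, while Kdr and Dll4 lie near 0.

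VEGF and genes known to respond to low oxygen were listed because VEGF induces several tip cell markers, Esm1 among them. 2 of 12 measured genes rose, 0 fell, and 10 stayed short of the threshold, and the median log2 fold change was 0.07. Vegfa read 6.74 ± 0.47 in knockout arrays against 5.29 ± 0.13 in controls (log2 fold change 1.45 ± 0.20, adjusted p = 0.00312 by limma). Egln3, an oxygen-sensing hydroxylase that hypoxia induces, read 5.26 ± 0.43 and 3.19 ± 0.69 (2.07 ± 0.31, adjusted p = 0.00549). The part of VEGF or of low oxygen in the rise of Esm1, Kcne3 and Rgcc was not tested.

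Endocan carries a dermatan sulfate chain and binds the leukocyte integrin LFA-1, and genes for both were followed with Esm1. 2 of 11 measured genes rose, 2 fell, and 7 stayed short of the threshold, with a median of 0.36. Chst11, a chondroitin sulfotransferase, was higher by 1.17 ± 0.15 (adjusted p = 0.00197 by limma) and Xylt1, which adds the first sugar of the chain, by 1.13 ± 0.23 (adjusted p = 0.0259). Dse, the epimerase that makes dermatan sulfate, was lower at -0.64 ± 0.11 (adjusted p = 0.00929), as was the dermatan sulfotransferase Chst14 at -0.65 ± 0.15 (adjusted p = 0.0437). Xylt1 missed the threshold when any of replicates 2, 3 and 4 of either group was left out (largest adjusted p 0.0755). Chst14 passed in 2 of the 10 fits that left out an array, those lacking knockout replicates 3 and 4 (largest adjusted p 0.114 in the others). Without knockout replicate 2, or control replicate 2, 3 or 4, 2 genes of this list passed in place of 4.

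The members did not share a single pattern from array to array within a group. Over the 10 deviations from the group means, Kcne3 and Plaur had the closest pattern, with Pearson's r of 0.818 and Spearman's rho of 0.83. Without control replicate 1 their r was 0.736, and without the 2 arrays where Kcne3 lay farthest from its median deviation it was 0.567. Knockout replicates 1 and 2 were above the group mean in both genes and knockout replicate 3 was lowest in both. Esm1 and Rgcc, which both rose, had an r of -0.237, and Kcne3 and Rgcc one of -0.565. These are 3 of 15 pairs, given as descriptions over arrays that share the pooled preparation and the normalization, and with no test.

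**Figure D3:**
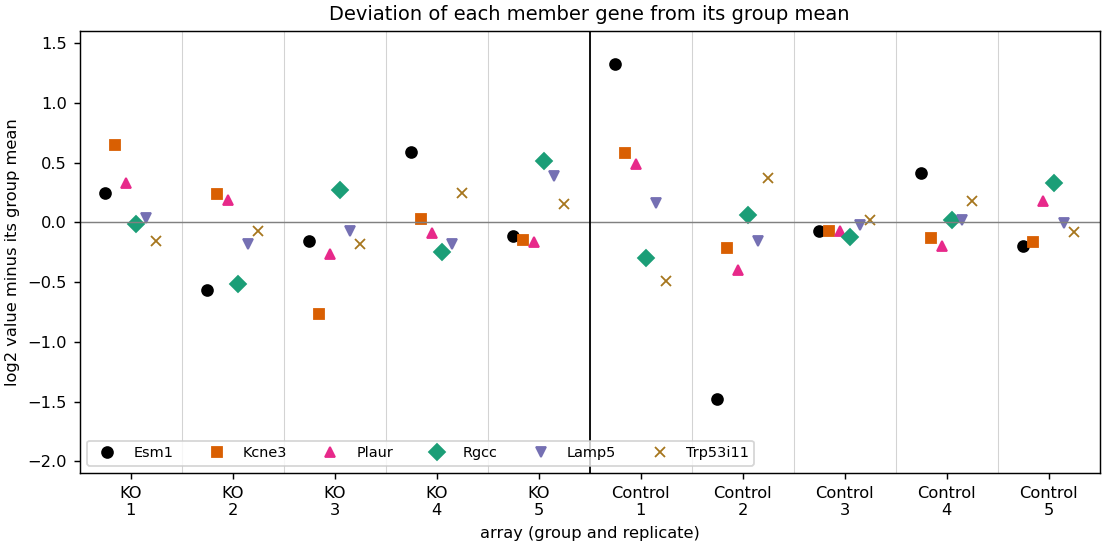
Deviation of each member from the mean of its group, in log2 units (y axis), in each of the 10 arrays (x axis, group and replicate), with a symbol per gene. Control replicate 1 lies highest of the controls for Esm1, Kcne3, Plaur and Lamp5 and lowest for Rgcc and Trp53i11, and Kcne3 and Plaur lie on the same side of 0 in most arrays.

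Control replicate 1 differed from the other arrays as a whole. Its correlations with them across genes were 0.920 to 0.944, where those among the other 9 were 0.969 to 0.988. It was the highest control for Esm1, Kcne3, Plaur and Lamp5 and the lowest for Rgcc and Trp53i11. Without it, Esm1, Kcne3 and Rgcc still passed, Plaur passed as well, and Trp53i11 and Lamp5 did not. The Gata4 probe set itself read 8.59 ± 0.24 in knockout arrays against 8.71 ± 0.15 in controls (log2 fold change -0.12 ± 0.13, adjusted p = 0.742 by limma). The sources used here do not say whether its probes lie inside the deleted sequence, so this value does not check the labels.

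The genes closest to each member by these deviations were sought among 11033 protein-coding genes above the median brightness, by the lower of the correlations over 10 arrays and over 9 without control replicate 1. For Esm1 they were Zfp697 (r of 0.886 and 0.919), Wnt10a (0.923 and 0.858) and Sp5 (0.844 and 0.928). For Kcne3 they were Fkbp2 (0.969 and 0.960), Nsmce2 (0.945 and 0.967) and Gng11 (0.935 and 0.931). For Rgcc they were Nes, the intermediate filament gene nestin (0.955 and 0.950), Osbpl11 (0.944 and 0.965) and Pom121 (0.935 and 0.946). None of these 9 genes passed the threshold between the groups, and they were picked as the highest of that many genes over 10 arrays. The genes closest to Plaur were Hcfc1r1, Sf3b6 and Ppp1r11, those closest to Lamp5 were Creb3l3, Olfr549 and Tshz2, and those closest to Trp53i11 were Pomt2, Mknk1 and Creld1.

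Markers of the labelled cell type were bright in both groups: the mean over the sinusoidal list ran from 9.77 to 10.11 in the knockout arrays and from 10.13 to 10.54 in the controls, and that of the pan-endothelial list from 9.63 to 10.05 and from 9.79 to 10.04. None of 12 pan-endothelial markers passed by limma, and 2 had an unadjusted p under 0.05, beside 13.6% of all genes: Cldn5, a tight junction claudin, at -0.53 ± 0.13 (adjusted p = 0.0679) and Tek, the angiopoietin receptor, at -0.39 ± 0.14 (adjusted p = 0.219). Of 12 sinusoidal markers, 8 had an unadjusted p under 0.05. After adjustment, 4 of the 12 fell, 0 rose and 8 did not pass. Among the latter were Gata4 itself and Clec4f, a gene that is also in the Kupffer cell list. Those that fell were Clec4g, the gene whose control sequences drive the Cre (-0.76 ± 0.14), F8, coagulation factor VIII (-0.65 ± 0.15), Dnase1l3, an endonuclease (-0.64 ± 0.14), and Mrc1, the mannose receptor (-0.57 ± 0.13). These calls lay near the threshold: with each array left out in turn, Clec4g passed in 5 of 10 fits, F8 in 1, Dnase1l3 in 2 and Mrc1 in 3, and the largest adjusted p were 0.0598, 0.116, 0.104 and 0.107. Their log2 fold changes moved little in those fits, from -0.84 to -0.69 for Clec4g, from -0.72 to -0.54 for F8, from -0.72 to -0.56 for Dnase1l3 and from -0.63 to -0.50 for Mrc1. Clec4g missed the threshold in fits lacking knockout replicates 1 or 2 or any of control replicates 2, 3 and 4. F8 passed in the fit lacking control replicate 1, and Dnase1l3 in that fit and the one lacking knockout replicate 3. Mrc1 passed in fits lacking knockout replicates 3 or 5 or control replicate 1. Mcam, whose product CD146 was used to isolate the cells, was higher by 1.24 ± 0.11 (adjusted p = 0.000242). As these are bulk samples, a change in the number of cells of a type and a change in RNA per cell cannot be told apart.

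Markers of other cells moved with the groups, beside the rise of Esm1, Kcne3 and Rgcc. Of 15 neutrophil and monocyte markers 8 rose, 0 fell and 7 did not pass, among the former Lcn2 (3.29 ± 0.40), S100a8 (3.16 ± 0.53), S100a9 (2.78 ± 0.43) and Ngp (2.72 ± 0.42). The mean of that list ran from 4.52 to 5.88 in the knockout arrays and from 3.14 to 3.87 in the controls. An unadjusted p under 0.05 by limma was found for 12 of the 15, beside 13.6% of all genes. Mpo and Elane, granule enzymes of immature neutrophils, were below the array median in both groups, at 3.22 ± 0.19 and 2.24 ± 0.19 in the knockout. Plaur is known from such cells, and its value is given above beside the arrays in which it was high. Of 10 cholangiocyte and epithelial markers 3 rose, Tm4sf4 (3.04 ± 0.59), Krt18 (2.25 ± 0.45) and Krt8 (1.44 ± 0.33), and 7 did not pass. Each of the 10 had a log2 fold change above 0, with a median of 1.44. An unadjusted p under 0.05 by limma was found for 9 of the 10. That list ran from 4.80 to 6.85 in the knockout and from 3.81 to 4.76 in the controls. All 3 missed the threshold in fits lacking any of knockout replicates 1, 2 and 4 and control replicates 4 and 5 (largest adjusted p 0.121), Krt18 and Krt8 also in the one lacking control replicate 3, and Krt8 also in the one lacking control replicate 2. The part of these cells in the rise of Esm1, Kcne3 and Rgcc was not tested. The covariate fits that follow cannot separate these cells from the genotype, because neither list mean overlapped between the groups.

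With the neutrophil list mean in the model as a covariate, 0 of the 6 members passed by limma, and 3 had an unadjusted p under 0.05. The log2 fold changes were 3.93 ± 0.97 for Esm1, 2.15 ± 0.59 for Kcne3 and 1.94 ± 0.41 for Rgcc, with larger SE than in the fit without a covariate. Of all genes 0 passed in that fit, with 1142 at an unadjusted p under 0.05, and the R squared of the covariate with the group was 0.815. For the cholangiocyte list it was 0.65. With the cholangiocyte list mean as the covariate Rgcc passed (1.81, adjusted p = 0.0256), while Esm1 (3.68, adjusted p = 0.0947) and Kcne3 (1.43, adjusted p = 0.297) did not.

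For the other cell types, counts at an unadjusted p under 0.05 are to be read beside the 13.6% of all genes at that level. None of 11 Kupffer cell and macrophage markers passed by limma, 0 of them at an unadjusted p under 0.05, the lowest p being those of Cd68 (0.83 ± 0.44, adjusted p = 0.462) and C1qa (0.41 ± 0.29, adjusted p = 0.589). Of 11 hepatocyte markers, 4 had an unadjusted p under 0.05 by limma. After adjustment Tat rose (2.06 ± 0.40) and Cyp2e1 fell (-1.52 ± 0.31). Both missed the threshold in fits lacking knockout replicate 1 or any of control replicates 3, 4 and 5, Cyp2e1 also in the one lacking knockout replicate 2 (largest adjusted p 0.0781). None of 12 stellate cell and fibroblast markers passed by limma, with 4 at an unadjusted p under 0.05, of which Col1a1 (1.23 ± 0.33, adjusted p = 0.0951) and Ngfr (-0.57 ± 0.19, adjusted p = 0.188) had the lowest p. For plasmacytoid dendritic cells, where Lamp5 is known, none of 11 markers passed, with 4 at an unadjusted p under 0.05. The lowest p were those of Tcf4 (0.49 ± 0.11, adjusted p = 0.0526) and Ly6d (0.68 ± 0.16, adjusted p = 0.054), and Siglech, a defining receptor of these cells, read 3.41 ± 0.20 in knockout arrays against 3.40 ± 0.16 in controls, below the array median. None of 11 markers of T, NK and B cells passed, with 1 at an unadjusted p under 0.05, Nkg7 (0.48 ± 0.18, adjusted p = 0.262), next to Cd79a (0.40 ± 0.20, adjusted p = 0.408).

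Antibody genes, which B cells and above all plasma cells express, were not in that list, and they rose beside the members. This group was picked after its values were seen. Of 215 measured genes for antibody chains, their segments and the joining chain, 21 rose and 0 fell, with a median log2 fold change of 0.25. An unadjusted p under 0.05 was found for 77 of them. The shares over all genes were 1.30% that rose, 0.846% that fell and 13.6% at that unadjusted p. Ighm, the heavy chain of IgM, was higher by 2.07 ± 0.19 (adjusted p = 0.00026 by limma), Igkc, the constant part of the kappa light chain, by 2.40 ± 0.26 (0.000732), Ighg1, an IgG heavy chain, by 2.76 ± 0.38 (0.00318), and Jchain, the joining chain, by 1.40 ± 0.23 (0.00924). These 4 calls held in all 10 fits that left out an array. The mean over the 215 genes ran from 2.89 to 3.26 in the knockout arrays and from 2.63 to 2.83 in the controls. The B cell surface genes Cd79a, Cd79b and Ms4a1 were at 0.40 ± 0.20, 0.13 ± 0.18 and 0.03 ± 0.13 and did not pass. Antibody segments are close copies of each other, so calls of single segments are uncertain, and the part of these cells in the rise of Esm1, Kcne3 and Rgcc was not tested.

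**Figure D4:**
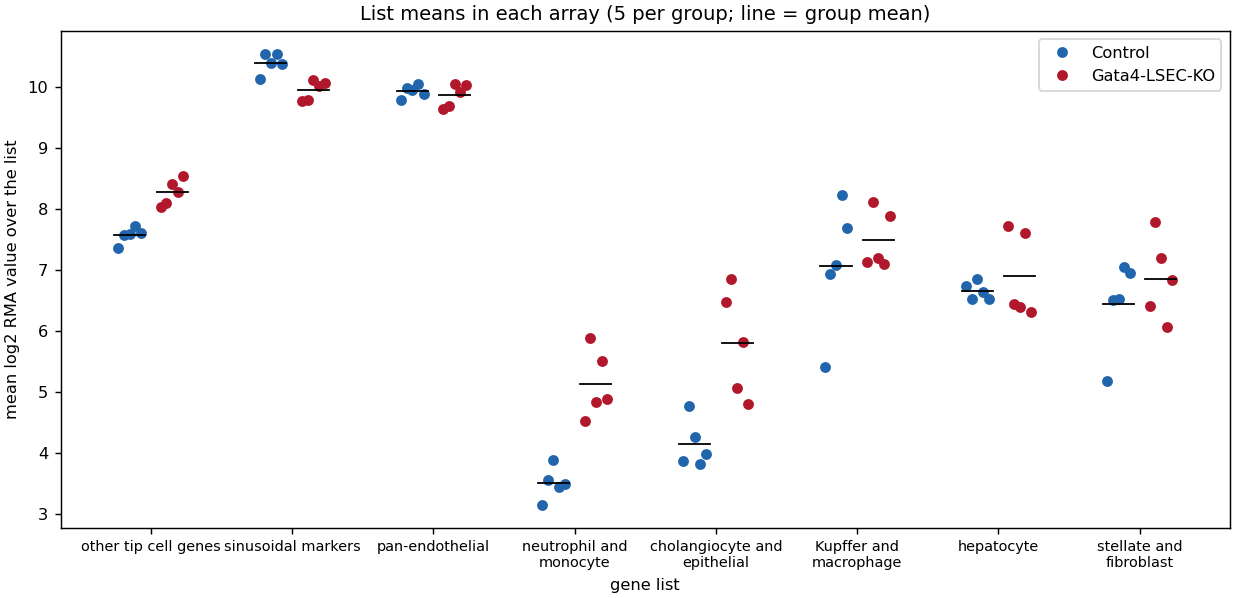
Mean log2 value over each of 8 gene lists (y axis) in each array, by list (x axis) and group (colour), with a line at the group mean. The neutrophil and cholangiocyte lists do not overlap between the groups, nor do those of other tip cell genes and sinusoidal markers, while the pan-endothelial, Kupffer, hepatocyte and stellate cell lists do.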

How the data were processed

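The data were 10 arrays of mouse liver sinusoidal endothelial cells, 5 per group. The authors' deposited values are log2 RMA values (background correction, quantile normalization, probe set summarization), per the submitters' processing notes (version not stated). The log2 scale was judged from the values, with a median of 3.71. Sorted values were shared with another array in 9 of the 10 arrays, while 1 array, not identified here, did not share them. No normalization was added in the main fit, and cyclic loess was tried as an alternative. The sources used here name neither the array design nor a genome build. Of 25428 probe sets, 24705 had 1 gene symbol and 723 none; 1 symbol had a second, dimmer probe set, which was dropped, leaving 24704 genes.

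Knockout and control were compared with limma 3.58.1 in R 4.3.3 (lmFit and eBayes, no trend, no covariate, no filter on dim genes, two-sided), with Benjamini-Hochberg adjustment over all 24704 genes and a threshold of 0.05. Values are means ± SD with n = 5, fold changes ± SE, and intervals are 95% intervals per gene, not adjusted for the number of genes. The procedure was also run on simulated data with independent noise in each gene and array. Such noise lacks the differences between whole arrays seen here, so that run is no support for the calls. The members and all gene lists were chosen with earlier results of these data known, so their counts are no independent evidence. From each list were named up to 4 called genes with the largest change, or, if none passed, the 2 with the lowest p; Gata4, Mcam and the 3 genes most like each member were named as well, and any other gene given with values was picked with its values known. Alternatives were an intensity trend, array weights, the replicate number as a block, cyclic loess, a filter at the median brightness, 2 marker list means as covariates and leaving out each array. The labels do not state whether same-numbered arrays form pairs, so the main fit has no pairing. Over all genes, same-numbered arrays had correlations of deviations from -0.165 to 0.0389. Such values cannot exclude a pairing that affects single genes. Promoter windows are from RefSeq. The number of arrays limits the precision, and detection calls were not used here.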

Additional observations from a re-analysis of the deposited data

Results flagged for a closer look

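In Kcne3, control replicate 1 read 5.57, with the nearest other control at 4.92, a gap that was 0.818 of the range of the 5 controls. Of 12 groups of 5 arrays tested for a single distant array (6 members in each group), this was the 1 that stood out. Chance gives about 1 in 20 for each group tested, so 1 flag among 12 groups may arise by chance. The array is the one whose correlations with all the others across genes were lowest. Without it, the log2 fold change of Kcne3 was 2.10.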

How the results depend on the processing

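The calls of Esm1, Kcne3 and Rgcc kept their direction and their side of the threshold with an intensity trend, array weights, cyclic loess, a filter at the median brightness, the replicate block and each array left out. With the replicate block their adjusted p by limma was 0.00619, 0.00619 and 0.0212, and the block moved no member across the threshold. The SE was then 0.25 in place of 0.42 for Esm1, 0.17 in place of 0.24 for Kcne3 and 0.17 in place of 0.19 for Rgcc. Over all genes the block gave 275 calls. With the neutrophil list mean as a covariate 0 members and 0 genes passed (1142 genes at an unadjusted p under 0.05): Esm1 was at 3.93, Kcne3 at 2.15 and Rgcc at 1.94, and Lamp5 turned to 0.21. With the cholangiocyte list mean 1 member and 51 genes passed, Esm1 being at 3.68, Kcne3 at 1.43 and Lamp5 at 0.0867. Array weights gave 1070 genes and brought Plaur past the threshold (0.67, adjusted p = 0.0279). Leaving out each array in turn gave 287 to 737 genes, 3 to 4 members, and 0.44 to 0.66 for Plaur, which passed in 1 of 10 fits. The genes described above as missing the threshold in such fits kept the sign of their log2 fold change. The cause of these changes was not tested. Lamp5 was below the filter on dim genes and has no value there. Of 153 recounts of 9 gene lists, 110 stayed within 1.5 times the count given, 40 were lower (15 of them with a covariate) and 3 were higher. A second probe set per member could not be tried, since each member has 1.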

Other observations

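The deviations of Plaur from its group means ran against those of the sinusoidal marker list. Over the 10 arrays Pearson's r was -0.954 and Spearman's rho -0.964, r was -0.921 over 9 arrays without control replicate 1 and -0.886 without the 2 arrays where Plaur lay farthest from its median deviation. Kcne3 had an r of -0.862 with the same list and -0.857 with the pan-endothelial list, and Plaur had -0.851 with the latter. Without the 2 arrays where the member lay farthest from its median deviation, these were -0.697, -0.725 and -0.779. For Esm1 the r with the sinusoidal and pan-endothelial lists were weaker, at -0.438 and -0.195, and their sign was not stable. Without the 2 arrays where Esm1 lay farthest from its median deviation they were 0.321 and 0.199. For Rgcc both were above 0, at 0.602 and 0.618, and at 0.469 and 0.336 without the 2 arrays where Rgcc lay farthest. Kcne3 also ran against the list of kinases bound by RGCC and of the G2 and M phases, with an r of -0.800. With the cholangiocyte list Kcne3 had an r of 0.494, and of 0.684 without control replicate 1. That r was 0.614 without the 2 arrays where Kcne3 lay farthest from its median deviation. Trp53i11 had an r of 0.731 with the sinusoidal list, but a Spearman's rho of 0.491. Without the 2 arrays where Trp53i11 lay farthest from its median deviation, its r was 0.464. Rgcc had an r of -0.676 with the cholangiocyte list, and of -0.791 without control replicate 1. Without the 2 arrays where Rgcc lay farthest from its median deviation, its r was -0.222. The values of Trp53i11 with the sinusoidal list and of Rgcc with the cholangiocyte list thus depended on few arrays, as did those of Esm1. These are some of 54 pairs of a member and a gene list, were picked after all had been computed, and are given without a test.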
